A study of Mus musculus with 5 samples.

Results

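Mouse messenger RNA was read for 9 genes of transcription factors in 2 kinds of purified male germ cell: the regulatory factor X (RFX) genes Rfx1 to Rfx7, the MYB gene Mybl1 and the basic helix-loop-helix gene Tcfl5. They were found by their symbols in a deposited table of 56324 rows, where each symbol had 1 row, and all 9 passed the filter on low values (a mean of at least 10 over the 5 libraries). The libraries were 3 of spermatids, the haploid cells that build the sperm, and 2 of spermatocytes, the cells in meiosis. All came from male C57Bl/6 mice aged 12 weeks, and the labels name no treatment, mutation or transgene. The cells were separated by settling under gravity, which sorts mainly by size, so each fraction can hold other testis cells of similar size. Whether the libraries of a group came from different animals is not given in the labels, so the spread between them may be technical.

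RFX proteins share a winged-helix domain that binds the X-box, a palindromic DNA element found in front of many genes of cilia and flagella. In mice RFX2 and RFX3 are known as regulators of ciliary genes, and RFX2 is required for spermatids to mature. RFX5 works in another pathway: with its partners RFXAP and RFXANK it switches on major histocompatibility complex (MHC) class II genes. RFX6 is known from pancreatic endocrine cells and RFX4 from the developing brain. MYBL1, also called A-MYB, drives genes of the pachytene stage of meiosis, including piRNA precursors and piRNA pathway genes. TCFL5 is a factor of meiotic and early haploid germ cells.

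The levels of 5 RFX genes were higher in spermatids and those of 3 of the 9 genes were lower. Rfx1, Rfx3 and Rfx6 differed most, by 54.1-fold, 21.6-fold and 76.0-fold in group means. Rfx2 and Rfx4 were 1.74-fold and 1.60-fold higher in spermatids as deposited, and both rises depended on library scaling. Rfx5, Rfx7 and Mybl1 were lower in spermatids, at 30.1%, 66.6% and 42.4% of the spermatocyte mean. Tcfl5 did not pass the test. Of all 28370 rows tested, 40.6% were called higher in spermatids, 36.5% lower and 77.1% either way (limma, Benjamini-Hochberg adjusted p under 0.05), so that 8 of 9 called is near what any set of genes shows here. The groups did not overlap for any of the 9, as for 85.8% of all rows tested. In bulk samples fewer cells of a type and less RNA per cell cannot be told apart.

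The promoter windows of the genes that the results turn on are shown first, because the genes differ in which sites of their own families these windows hold. Windows of 300 bases, from 250 before to 50 after the annotated start, came from RefSeq (GRCm38.p6, the assembly of mm10) and were matched by symbol for 8 of the 9 genes; Mybl1 was not matched. Rfx4 had windows at both of its annotated starts. Capitals mark, on either strand, the X-box arm GTTGCC, the full X-box palindrome (GTNNCC and GGNNAC with 2 bases between them), the MYB site TAACNG and the E-box variant CACGCG, where N is any base. The 4 windows with an X-box arm belong to genes that were higher in spermatids as deposited. Rfx4 was also higher but had no arm in either of its windows, which are not printed.
Rfx1, chr8:84066586-84066885, plus strand: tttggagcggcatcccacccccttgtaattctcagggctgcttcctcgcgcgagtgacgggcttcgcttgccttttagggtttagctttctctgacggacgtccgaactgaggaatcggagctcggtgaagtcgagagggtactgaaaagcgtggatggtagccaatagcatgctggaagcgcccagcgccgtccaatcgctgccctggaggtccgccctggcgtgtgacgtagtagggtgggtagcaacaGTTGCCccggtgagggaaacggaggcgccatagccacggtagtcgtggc
Rfx2, chr17:56830959-56831258, minus strand: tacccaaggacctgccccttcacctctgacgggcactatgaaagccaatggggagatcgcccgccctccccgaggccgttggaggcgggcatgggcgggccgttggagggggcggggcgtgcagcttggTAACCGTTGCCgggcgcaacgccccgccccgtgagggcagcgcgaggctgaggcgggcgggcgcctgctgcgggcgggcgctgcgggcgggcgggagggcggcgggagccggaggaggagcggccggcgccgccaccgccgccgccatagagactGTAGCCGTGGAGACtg
Rfx3, chr19:28011117-28011416, minus strand: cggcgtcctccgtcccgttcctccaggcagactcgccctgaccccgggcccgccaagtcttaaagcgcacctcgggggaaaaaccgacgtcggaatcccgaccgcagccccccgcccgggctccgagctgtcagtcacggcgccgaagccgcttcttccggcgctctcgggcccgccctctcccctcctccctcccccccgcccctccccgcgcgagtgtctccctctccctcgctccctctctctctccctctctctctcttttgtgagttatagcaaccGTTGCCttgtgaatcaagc
Rfx6, chr10:51685268-51685567, plus strand: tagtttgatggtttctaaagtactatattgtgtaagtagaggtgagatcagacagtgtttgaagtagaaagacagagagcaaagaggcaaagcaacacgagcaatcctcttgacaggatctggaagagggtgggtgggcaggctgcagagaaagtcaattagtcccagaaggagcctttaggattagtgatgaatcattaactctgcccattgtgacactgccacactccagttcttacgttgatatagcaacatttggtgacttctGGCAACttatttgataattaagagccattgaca
Windows of a gene that was lower in spermatids and of one that did not pass the test follow for comparison.
Rfx5, chr3:94953858-94954157, plus strand: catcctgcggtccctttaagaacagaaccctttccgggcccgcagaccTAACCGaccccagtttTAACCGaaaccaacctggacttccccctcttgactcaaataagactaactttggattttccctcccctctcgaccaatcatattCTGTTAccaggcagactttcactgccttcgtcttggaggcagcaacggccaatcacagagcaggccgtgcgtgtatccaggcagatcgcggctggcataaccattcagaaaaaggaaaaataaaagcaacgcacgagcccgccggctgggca
Tcfl5, chr2:180642642-180642941, minus strand: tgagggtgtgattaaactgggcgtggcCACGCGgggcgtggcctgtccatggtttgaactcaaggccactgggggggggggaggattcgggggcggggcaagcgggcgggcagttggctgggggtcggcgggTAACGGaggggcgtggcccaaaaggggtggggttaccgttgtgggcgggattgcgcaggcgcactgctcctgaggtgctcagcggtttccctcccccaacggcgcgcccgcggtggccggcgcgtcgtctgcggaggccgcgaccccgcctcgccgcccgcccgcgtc

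The X-box arm lay in the windows of 4 of 8 genes, Rfx1, Rfx2, Rfx3 and Rfx6, and in 12.5% of all 32851 promoter windows. In Rfx1 it begins 1 base after the start base, in Rfx3 31 bases after it and in Rfx6 17 bases after it on the opposite strand, while in Rfx2 it lies 116 bases before. Rfx2 alone of the 8 also held the palindrome with 2 bases between its arms, which occurred in 1.88% of all windows. The same palindrome with 1 and 3 bases between its arms occurred in 1.01% and 0.642% of all windows and in none of the 8 genes. TAACNG was found for Rfx2, Rfx4, Rfx5 and Tcfl5, against 23.3% of all windows, and in Rfx2 it shares a base with the X-box arm. In Rfx4 both TAACNG matches were in the second annotated start and the first start held none. The shorter MYB core AACNG was in the windows of 7 of the 8 genes, Rfx7 being the exception, and in 80.3% of all windows. CACGCG was found for Tcfl5 and Rfx7 (9.27% of all windows) and the E-box CACGTG for none of the 8 (7.15%). The windows of Tcfl5 and Rfx7 were 73.0% and 84.7% G or C, against a median of 52.7% over all windows. The shares over all windows were not matched for base content, and they count windows where the members are counted by gene. A match is a description of these letters only, and binding was not measured.

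**Figure D1:**
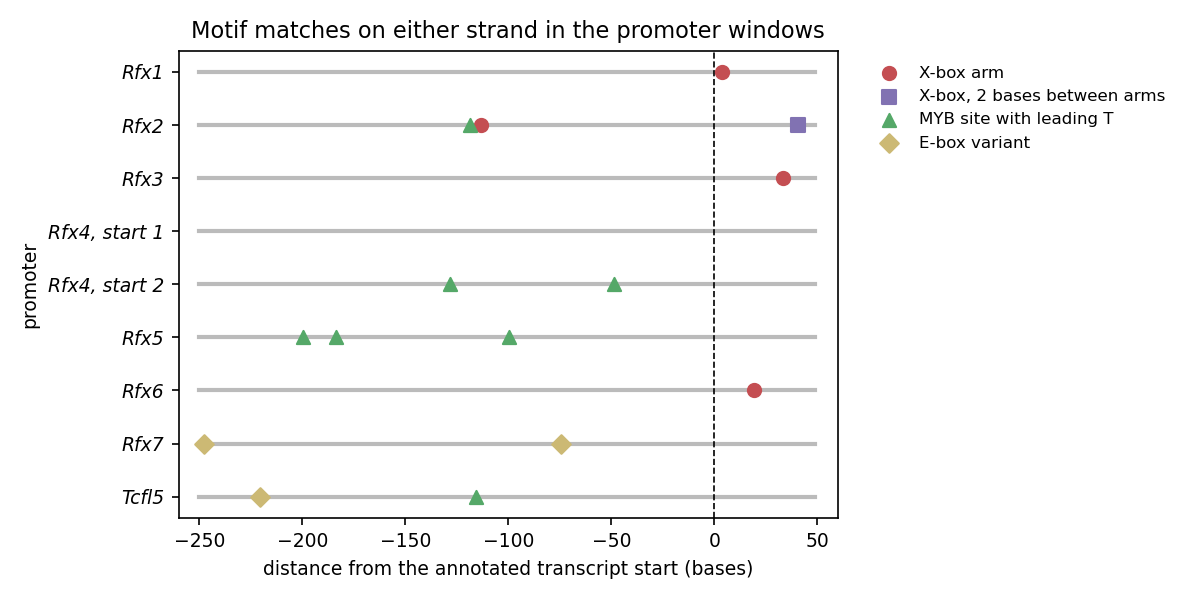
Positions of motif matches in the 300-base promoter windows of 8 genes, with distance from the annotated start in bases on the x axis and 1 line per window; symbols mark the kind of site. The X-box arm stands within 36 bases after the start in Rfx1, Rfx3 and Rfx6 and upstream in Rfx2.

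Rfx1, whose protein is a broadly expressed X-box factor, had normalized counts of 25609, 32503 and 30851 in spermatids, against 638 and 459 in spermatocytes. Every spermatid library was far above both spermatocyte libraries, and spermatid replicate 1 was the lowest of the 3. The log2 fold change was 5.77 ± 0.17 (SE; 95% interval 5.36 to 6.17), with a limma adjusted p of 5.96e-07, and 5.97% of all tested rows had one at least as high. The row spans chromosome 8 from 84066833 to 84097002 on the plus strand (mm10). Its first 456 bases are shared with the row of C330011M18Rik, annotated as antisense on the minus strand, and the whole promoter window printed for Rfx1 lies within that row. C330011M18Rik had 1781, 2057 and 1877 normalized counts in spermatids, against 52.8 and 57.7 in spermatocytes. This antisense row was thus called in the same direction (log2 fold change 5.08 ± 0.14 (SE), limma adjusted p = 5.13e-07). The strand setting of the counting is not given in the sources used here, so reads of the shared bases cannot be told apart. The row of the microRNA Mir709, inside Rfx1, was at 8.38 or lower in every library and was not tested.

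Rfx3, a factor of ciliary genes in mice, had 6643.5, 5860 and 5709 normalized counts in spermatids, against 309 and 252 in spermatocytes. The groups were far apart and the spread within each was small. This was a log2 fold change of 4.43 ± 0.13 (SE; 95% interval 4.12 to 4.75), limma adjusted p = 6.03e-07, and 12.2% of all tested rows were as high or higher. Its row covers chromosome 19 from 27761721 to 28011167 and includes 7 short unnamed rows, none above 27.9 in any library.

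Rfx6 had few counts in every library: 288, 271 and 314 normalized counts in spermatids, against 4.31 and 3.35 in spermatocytes. These spermatocyte values stand for 4 and 5 recovered reads, and the spermatid values for 186, 273 and 300. From pooled reads the ratio was 78.2-fold, with an exact 95% interval of 41.0 to 171.8 that covers counting error only. The log2 fold change was 5.92 ± 0.27 (SE), limma adjusted p = 2.78e-06, and it ran from 4.44 with a pseudocount of 10 to 6.29 with DESeq2. Rfx6 lies on chromosome 10, and its row starts at 51677760, upstream of the RefSeq window printed for it.

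The spermatocyte mean was 1.85% of the spermatid mean for Rfx1, 1.32% for Rfx6 and 4.62% for Rfx3. For comparison, 9 marker genes of spermatids had spermatocyte means of 1.27% (Spaca1) to 1.82% (Prm2) of their spermatid means. By group means the value of Rfx6 lies inside that range, that of Rfx1 just above it and that of Rfx3 clearly above it. The range itself depends on spermatid replicate 1, where Prm2 was at 583220, against 140590 and 140410 in replicates 2 and 3. Spaca1 was more even (24594, 27604 and 22896), and Rfx1 was lowest in replicate 1. The place of Rfx1 relative to the range is therefore not settled. Nor is that of Rfx6, whose spermatocyte values stand for only 4 and 5 reads. The part that spermatid RNA in the spermatocyte libraries has in these levels was not tested.

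Rfx2, the RFX gene best known from mouse spermatids, had 11643, 11052 and 10773 normalized counts in spermatids, against 6497 and 6334 in spermatocytes. The libraries of each group were tightly grouped and the groups did not overlap. Its log2 fold change was 0.80 ± 0.08 (SE; 95% interval 0.60 to 1.00), limma adjusted p = 0.000135. Rfx4 had normalized counts of 10385, 11765 and 10575 in spermatids, against 6972 and 6634 in spermatocytes. The lowest spermatid library was again above the highest spermatocyte library. Rfx4 had a log2 fold change of 0.68 ± 0.09 (SE; 95% interval 0.46 to 0.90), limma adjusted p = 0.000513. No other row overlaps those of Rfx2 (chromosome 17, 56775897 to 56831020) and Rfx4 (chromosome 10, 84756048 to 84906538).

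The rises of Rfx2 and Rfx4 depended on how libraries were scaled. As deposited, the normalized counts of all rows summed to 96511989, 83611275 and 80600836 in spermatids, against 56855924 and 53899393 in spermatocytes. With each library rescaled to the same total the log2 fold change of Rfx2 was 0.15 (limma adjusted p = 0.163) and that of Rfx4 0.03 (limma adjusted p = 0.82). After quantile normalization they were 0.08 (limma adjusted p = 0.383) and -0.04 (limma adjusted p = 0.737). The median of all tested rows was 0.07 as deposited, -0.57 with equal totals, -0.42 after quantile normalization and -0.02 with TMM factors. Of all rows, equal totals gave 30.5% called higher and 49.4% lower, while quantile normalization gave 32.9% and 46.9%. Of the 9 genes 3 were then higher and 4 lower under both. Under every one of these scalings Rfx2 and Rfx4 stayed above that median.

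**Figure D2:**
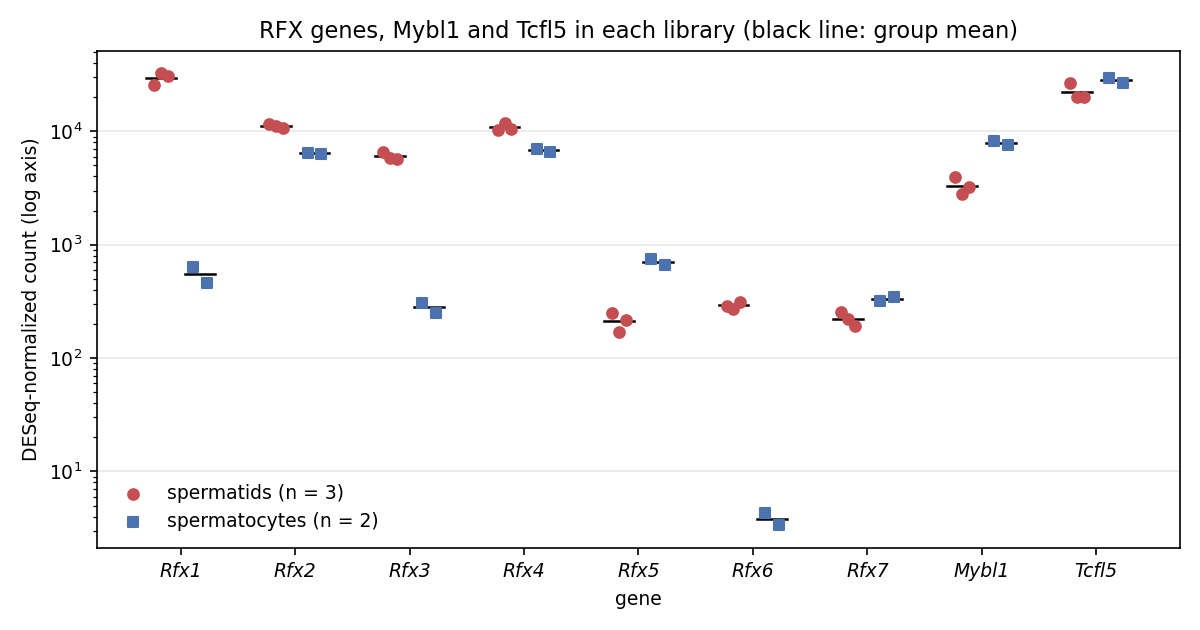
DESeq-normalized counts of the 9 genes on a log axis, 1 point per library, with spermatids (red circles, n = 3) left of spermatocytes (blue squares, n = 2) and a black line at each group mean. Rfx1, Rfx3 and Rfx6 show the widest gaps, and the groups of Tcfl5 almost touch.

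Rfx5, the MHC class II factor, had 251, 170 and 215 normalized counts in spermatids, against 745 and 662 in spermatocytes. All spermatid libraries were below both spermatocyte libraries. Rfx5 had a log2 fold change of -1.74 ± 0.20 (SE; 95% interval -2.22 to -1.26), limma adjusted p = 0.000213. Of its row on chromosome 3 (94954135 to 94961561), 2528 bases are shared with the antisense row B230398E01Rik. That row had 293, 405 and 335 in spermatids, against 558 and 525 in spermatocytes, and was also called lower (log2 fold change -0.66 ± 0.18 (SE), limma adjusted p = 0.0115). With this overlap and no known strand setting, the level of Rfx5 is uncertain.

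Rfx7 had few counts in both groups, with 254, 221 and 191 normalized counts in spermatids, against 318 and 349 in spermatocytes. The highest spermatid library was still below the lower spermatocyte library. For Rfx7 the log2 fold change was -0.59 ± 0.19 (SE; 95% interval -1.03 to -0.15), limma adjusted p = 0.0223. The call ended when any library other than spermatid replicate 1 was left out, with limma adjusted p of 0.0719 without spermatocyte replicate 1, 0.126 without spermatocyte replicate 2, 0.0505 without spermatid replicate 2 and 0.0596 without spermatid replicate 3.

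Mybl1, the pachytene regulator, had 3941, 2814 and 3221 normalized counts in spermatids, against 8154 and 7518 in spermatocytes. It was lower in every spermatid library, with replicate 1 the highest of the 3. The log2 fold change was -1.25 ± 0.15 (SE; 95% interval -1.61 to -0.89), limma adjusted p = 0.000262. Its spermatid mean was 42.4% of the spermatocyte mean, a far larger share than that of Piwil1 (5.48%), the piRNA-binding protein gene used here as a spermatocyte marker. Among other spermatocyte markers, named after their values were seen, Sycp3, of the synaptonemal complex, was at 31.5% and Spo11, of meiotic breaks, at 42.3%. The row of Mybl1 (chromosome 1, 9668831 to 9700209, minus strand) overlaps no other row.

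Tcfl5, the helix-loop-helix gene, had 26803, 20134 and 20154 normalized counts in spermatids, against 29425 and 26819 in spermatocytes. Spermatid replicate 1 almost reached the lower spermatocyte library, and the other two spermatid libraries stood apart from it. The log2 fold change was -0.34 ± 0.15 (SE; 95% interval -0.69 to 0.01), limma adjusted p = 0.0667. Without spermatid replicate 1 it was -0.48 (limma adjusted p = 0.00132), with TMM factors -0.44 (limma adjusted p = 0.0227) and with equal totals -0.99 (limma adjusted p = 5.78e-05). Its row (chromosome 2, 180621959 to 180642691) shares 231 bases with the collagen gene Col9a3 on the opposite strand, which was at 544 to 764 in spermatids, against 36.6 and 39.6 in spermatocytes.

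**Figure D3:**
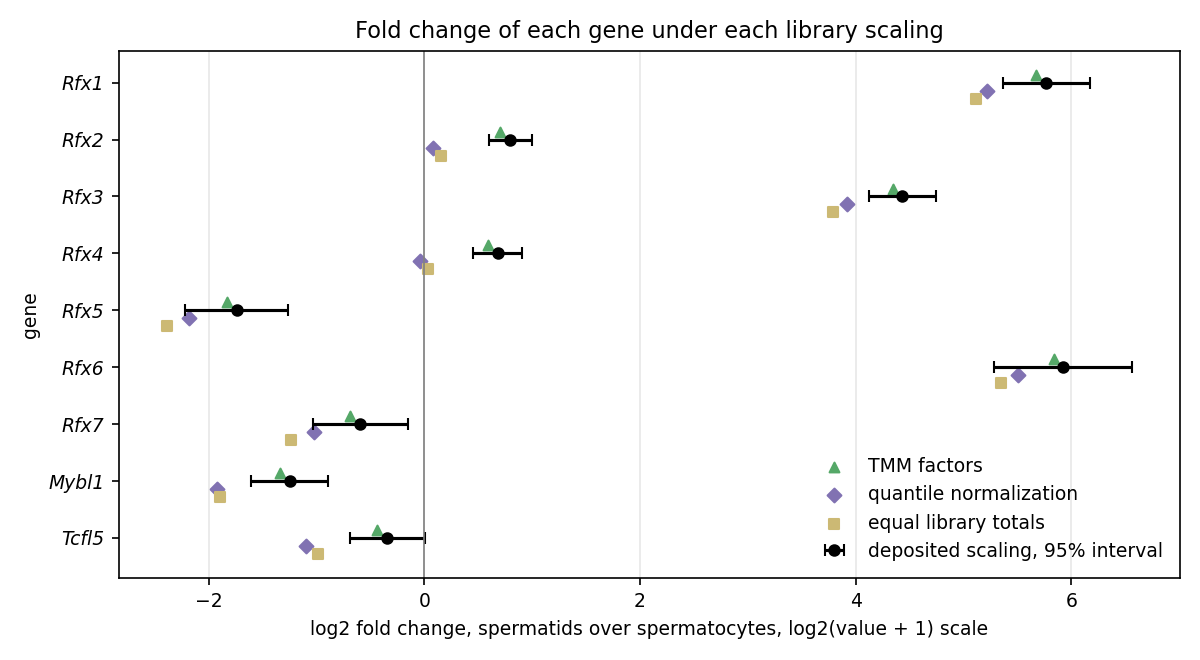
Log2 fold change of each gene, spermatids over spermatocytes, on the log2(value + 1) scale, with the 95% interval of the deposited scaling in black and other scalings as coloured symbols. Rfx1, Rfx3 and Rfx6 stay far right of 0, Rfx5, Rfx7 and Mybl1 stay left of it, and Rfx2 and Rfx4 move onto it with equal totals and quantile normalization.

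Levels were ordered per kilobase of the longest coding transcript in GENCODE vM21. On that scale Tcfl5 was highest in both groups, at 10050 ± 1728 normalized counts per kb in spermatids (SD, n = 3) and 12640 ± 828 in spermatocytes (SD, n = 2). In spermatids Rfx1 came next at 7108 ± 863, then Rfx2 at 3330 ± 133 and Rfx4 at 3087 ± 212, whose ranges overlapped. Mybl1 (668 ± 115) and Rfx3 (664 ± 54.9) also overlapped in spermatids, and Rfx6 (84.0 ± 6.36), Rfx5 (47.7 ± 9.08) and Rfx7 (27.8 ± 3.98) formed the low end. In spermatocytes the order was different: Rfx4 (1925 ± 67.7) and Rfx2 (1915 ± 34.4) overlapped and were followed by Mybl1 at 1573 ± 90.3. Rfx5 (158 ± 13.2) and Rfx1 (132 ± 30.2) overlapped next, and Rfx7 (41.8 ± 2.80), Rfx3 (30.7 ± 4.41) and Rfx6 (1.11 ± 0.20) were lowest. With merged exon length in place of the longest coding transcript, Rfx4 stood above Rfx2 in both groups without overlap. In spermatocytes Mybl1 (1451 ± 83.2) then overlapped Rfx4 (1440 ± 50.6) and stood above Rfx2 (878 ± 15.8), Rfx5 and Rfx1 no longer overlapped, and Rfx3 (25.4 ± 3.65) stood above Rfx7 (21.8 ± 1.46).

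The shares of Rfx1 to Rfx7 in their summed level were set side by side for the 2 cell types. Rfx1 accounted for 45.6, 51.2 and 51.4% of the summed level per kb of Rfx1 to Rfx7 in spermatids, against 3.55 and 2.69% in spermatocytes. Rfx4 made up 21.9, 21.9 and 20.8% in spermatids, against 45.8 and 45.8% in spermatocytes. Rfx2 made up 25.8, 21.7 and 22.4% in spermatids, against 45.0 and 46.1% in spermatocytes. Such shares do not change with library scaling, and with merged exon length Rfx1 still had a mean share of 50.4% in spermatids and 3.30% in spermatocytes. Rfx3 had 4.65 ± 0.65% in spermatids (SD, n = 3) and 0.73 ± 0.08% in spermatocytes (SD, n = 2), and Rfx5 had 0.34 ± 0.08% in spermatids and 3.76 ± 0.18% in spermatocytes. Rfx8 is not part of these sums, although its mean count was 8680 in spermatids and 10402 in spermatocytes, so the shares hold for the 7 genes only. The summed level was 13450, 15204 and 14390 normalized counts per kb in spermatids, against 4308 and 4099 in spermatocytes.

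**Figure D4:**
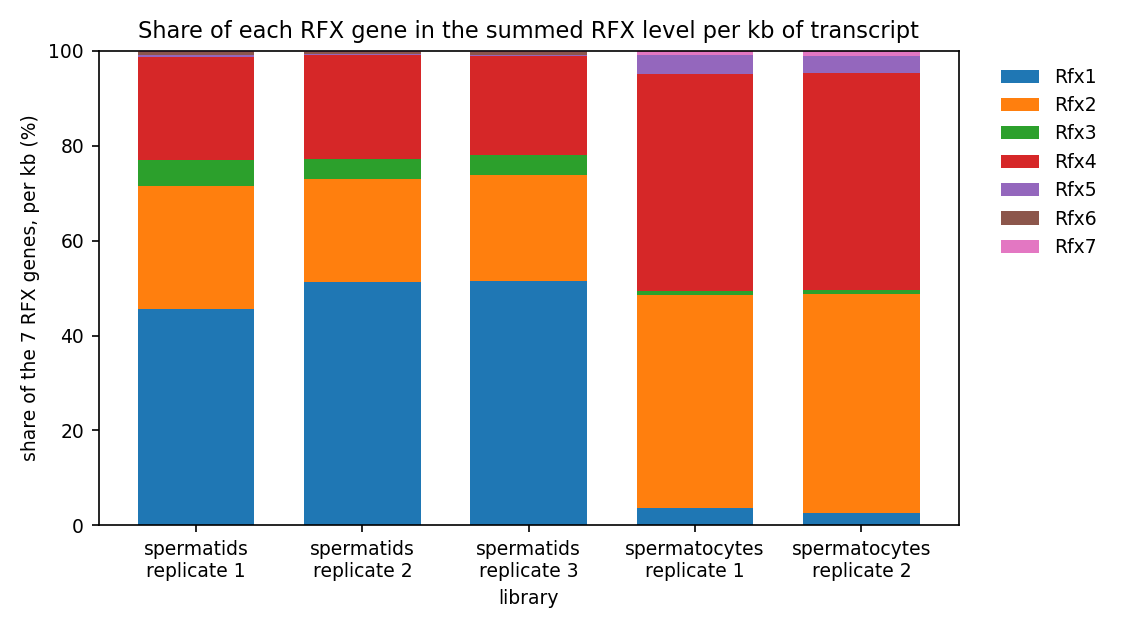
Share of each of the 7 RFX genes in their summed level per kb of longest coding transcript, in percent, 1 bar per library. Rfx1 fills 45.6 to 51.4% of the spermatid bars and 2.69 to 3.55% of the spermatocyte bars, where Rfx2 and Rfx4 have the largest shares of these 7 genes.

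Ratios within a library, which need no scaling, separated pairs of these genes. The log2 ratio of Rfx1 to Rfx2 normalized counts was 1.14, 1.56 and 1.52 in spermatids, against -3.35 and -3.79 in spermatocytes. The log2 ratio of Rfx2 to Mybl1 was 1.56, 1.97 and 1.74 in spermatids, against -0.33 and -0.25 in spermatocytes. Tcfl5 also stood higher relative to Mybl1 in spermatids, with log2 ratios of 2.77, 2.84 and 2.65 in spermatids, against 1.85 and 1.84 in spermatocytes. Rfx4 and Rfx2 kept nearly the same ratio, with log2 values of -0.17, 0.09 and -0.03 in spermatids, against 0.10 and 0.07 in spermatocytes, and these ranges overlapped.

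The genes also differed in how the spermatid libraries varied. Spermatid replicate 1 was 1.33 times the mean of replicates 2 and 3 for Tcfl5, 1.31 times for Mybl1, 1.30 times for Rfx5 and 1.24 times for Rfx7. It was 0.81 times that mean for Rfx1, 0.93 times for Rfx4, 0.99 times for Rfx6, 1.07 times for Rfx2 and 1.15 times for Rfx3. The summed level of 9 spermatid markers was 1794139 in spermatid replicate 1 and 661616 and 632288 in the others. The part of that library's make-up in these differences was not tested.

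The rows whose pattern over the 5 libraries was nearest to each gene were taken by the Euclidean distance between centred log2(value + 1) values, among 11963 named rows with a mean of at least 100. Nearest to Rfx2 were Ubap2 (distance 0.03) and the histone methyltransferase gene Ehmt2 (0.03), and nearest to Rfx4 were Pkig (0.04), of a protein kinase A inhibitor, and the helicase gene Ruvbl2 (0.04). Mgam (0.09) and Cxxc5 (0.11) were nearest to Rfx1, and Csgalnact1 (0.17) was near to Rfx3. For Rfx6 they were Pi16 (0.14) and Try5 (0.18), which belongs to a family of similar trypsinogen genes. For Rfx5 they were Crebrf (0.07) and Ttf1 (0.13), and for Rfx7 the RNA methylation gene Mettl14 (0.07) and the DNA repair gene Xpa (0.09). Mybl1 was nearest to the Polycomb-related gene Asxl2 (0.07) and the golgin gene Golga1 (0.09). Tcfl5 was nearest to Lace1 (0.05) and Dixdc1 (0.06). With only 5 libraries these distances describe the pattern and carry no test.

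Genes around RFX5 moved in both directions. Of Rfx8, the partners of RFX5 and MHC class II genes, 10 of 11 were tested, of which 6 were higher in spermatids and 3 lower (limma, median log2 fold change 1.02, against 0.07 over all rows tested, of which 40.6% were higher and 36.5% lower). Rfxap, whose protein joins RFX5 on DNA, had 222, 294 and 206 normalized counts in spermatids, against 2770 and 2496 in spermatocytes. It fell by 3.46 ± 0.18 (SE) on the log2 scale (limma adjusted p = 5.47e-06). Rfxank, the other partner, had 783, 755 and 744 in spermatids, against 590 and 577 in spermatocytes, a log2 fold change of 0.38 (limma adjusted p = 0.0187). Ciita, the coactivator of MHC class II genes, was under the filter, at 9.47 ± 4.71 in spermatids (SD, n = 3) and 8.34 ± 8.01 in spermatocytes (SD, n = 2). Rfx8, a further family member, had 8927, 7585 and 9528 in spermatids, against 10755 and 10048 in spermatocytes, and did not pass (log2 fold change -0.27, limma adjusted p = 0.075).

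The MHC class II genes H2-Aa, H2-Ab1 and H2-Eb1, the invariant chain gene Cd74 and H2-DMa rose in spermatids by log2 fold changes of 3.78, 1.67, 3.61, 4.41 and 2.78. H2-DMb1 and H2-DMb2, near-identical neighbours whose reads the counting may have shared, had log2 fold changes of -1.09 and -3.05. Cd74 averaged 268 ± 60.6 normalized counts in spermatids (SD, n = 3) and 12.1 ± 5.74 in spermatocytes (SD, n = 2). Of 10 markers of macrophages and blood, cells in which class II genes are active, 8 were higher in spermatids, beside 40.6% of all rows. Their sum was 1668, 3510 and 2837 in spermatid replicates 1, 2 and 3, and 180 and 223 in spermatocytes. Hba-a1 alone was at 0 in a library. Cd74 was also lowest in spermatid replicate 1 (200, against 315 and 290). H2-Ab1 was highest there (448, against 380 and 381), as were H2-Eb1 and H2-DMa, and H2-Aa was nearly even (167, 156 and 168). The part of macrophages and blood cells in the class II levels was not tested.

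The other MYB genes and the MuvB proteins that MYB factors work with in the cell cycle were split. Of 13 tested, 6 were higher in spermatids and 6 lower, beside 40.6% and 36.5% of all rows, and Lin54 was not called (log2 fold change 0.24, limma adjusted p = 0.0798). Mybl2, the gene of the cell-cycle MYB factor, had 2571, 2531 and 2897 normalized counts in spermatids, against 483 and 428 in spermatocytes. It thus differed in the direction opposite to Mybl1 (log2 fold change 2.55 ± 0.12 (SE), limma adjusted p = 3.25e-06). Myb itself was at 10.9 or lower in spermatids and at 52.8 and 26.2 in spermatocytes (log2 fold change -2.42, limma adjusted p = 0.0146). Among MuvB genes Lin52 (-3.38), Lin9 (-2.10) and Rbbp4 (-1.53) were lower and Lin37 (0.83) was higher. Among the E2F and pocket protein genes Rbl2 (4.46), Tfdp2 (1.10) and E2f4 (0.52) were higher, and Tfdp1 (-3.44) and Rbl1 (-1.63) were lower, all as log2 fold changes. E2f5 was also higher, at 1709 ± 262 in spermatids (SD, n = 3) and 105 ± 9.51 in spermatocytes (SD, n = 2). The list's median was 0.24, and with equal totals 3 members were higher, beside 30.5% of all rows.

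Of 21 tested piRNA pathway genes, among them known targets of MYBL1, 14 were lower in spermatids and 4 higher, with a median log2 fold change of -1.24 (limma; of all rows 36.5% were lower and 40.6% higher). Named by their mean normalized count over the 5 libraries, with no correction for length, were Tdrd6, Mael and Ddx4. Tdrd6, a tudor protein gene of germ granules, was not called (log2 fold change 0.06, limma adjusted p = 0.556), and Mael (0.60) and the helicase gene Ddx4 (0.52) were higher. With equal totals or quantile normalization, where 30.5% and 32.9% of all rows were higher, 1 member was higher.

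Of 47 tested genes of cilia and flagella, the class of genes that X-boxes are known for, 25 were higher in spermatids and 16 lower (limma, median log2 fold change 0.30), beside 40.6% higher and 36.5% lower of all rows. Equal totals gave 12 higher and 27 lower, beside 30.5% and 49.4% of all rows. Quantile normalization gave 12 higher and 26 lower, beside 32.9% and 46.9% of all rows. Among those with the highest mean count over the 5 libraries were Rsph1 of the radial spokes (log2 fold change -1.14) and the intraflagellar transport gene Ift172 (0.40). The X-box arm GTTGCC lay in 19 of 45 promoter windows of these genes, 42.2%, and the palindrome with 2 bases between its arms in 9, 20.0%, against 12.5% and 1.88% of all windows. These shares describe the list and carry no test.

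Of 18 regulators known from the step between meiosis and the spermatid, 14 were higher in spermatids and 2 lower (limma, median log2 fold change 1.42), beside 40.6% and 36.5% of all rows. Spz1, which had the highest mean count over the 5 libraries but not in spermatocytes alone, was at 245450, 120000 and 109760 in spermatids, against 2966 and 2237 in spermatocytes. Kctd19 was not called (log2 fold change 0.00, limma adjusted p = 0.982), and its partner gene Zfp541 was higher (0.56). The 2 lower were Meioc and Ythdc2, named after their values were seen; 1 was lower when any library other than spermatid replicate 1 was left out, and 6 were lower with equal totals or quantile normalization, where 49.4% and 46.9% of all rows were lower. The list holds Stra8, which is also a marker of spermatogonia, a cell type with 4 of 10 markers higher and 2 lower in spermatids. The summed spermatogonial markers were at 2110 to 2813 in spermatids and at 1811 and 2223 in spermatocytes, and their part in the list's counts was not tested.

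**Figure D5:**
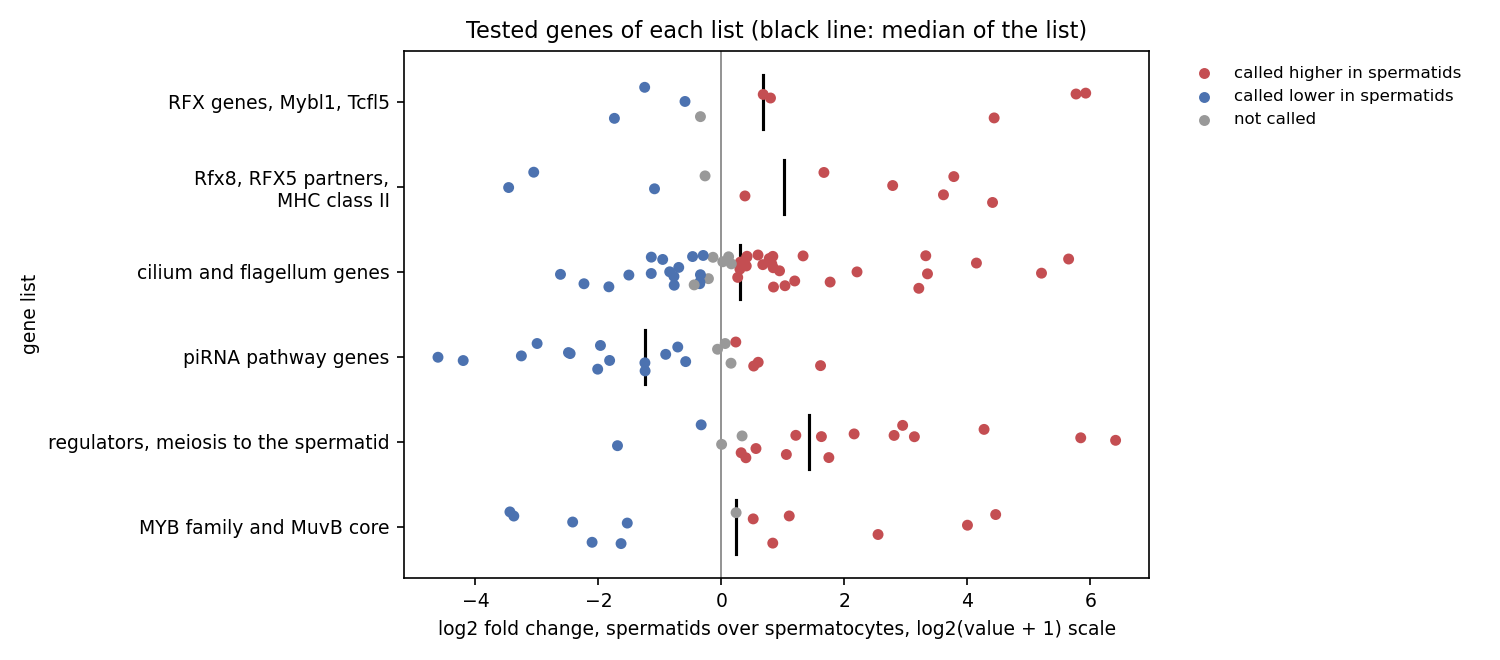
Log2 fold change, spermatids over spermatocytes, of the tested genes of each list, 1 point per gene, coloured by call, with a black line at the list median. Points of the piRNA list lie mostly left of 0 and those of the regulators mostly right, and the other lists spread to both sides.

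Spermatid markers bore out the label of the spermatid fraction, while spermatocyte markers went in both directions. Markers of somatic cells were found in both fractions. Of all rows tested, 40.6% were called higher in spermatids and 36.5% lower. All 9 spermatid markers matched were higher in spermatids. Of 10 spermatocyte markers 5 were lower and 3 higher in spermatids, which is near the shares over all rows. All 12 Sertoli cell markers were lower in spermatids, summing to 1732 to 2408 in spermatids and to 58080 and 76723 in spermatocytes, none at 0 in a library. Of 10 Leydig cell markers 8 were lower in spermatids, summing to 732 to 908 in spermatids and to 3714 and 4491 in spermatocytes. Beside these sums, replicate 2 of the spermatocytes was 0.89 times replicate 1 for Rfx5, 0.92 times for Mybl1, 0.91 times for Tcfl5 and 1.10 times for Rfx7. The part of somatic RNA in the levels of the genes lower in spermatids was not tested. Recovered reads came to 52784231 to 84361908 per library, and the reads of the 9 genes in each library ranged from 4 for Rfx6 to 39997 for Tcfl5.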

How the data were processed

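Poly(A) RNA of 3 spermatid and 2 spermatocyte fractions was sequenced after TruSeq Stranded mRNA preparation, per the labels' protocols. FastQC, Picard, SAMtools, STAR 2.4.0, DESeq and mm10 are named, per the submitters' processing notes; neither the counting program nor its strand setting is given there. The deposited values are a signal, gene counts that the authors divided by DESeq size factors, per the file headers. Dividing each column by its smallest value above 0 gave whole reads for 100% of values within 0.001, 52784231 to 84361908 per library.

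Rows with a mean of at least 10 (28370 of 56324) were tested with limma 3.58.1 (empirical Bayes with a trend, 3 residual degrees of freedom) on log2(value + 1), with Benjamini-Hochberg adjustment over all tested rows and a threshold of 0.05. Fold changes are on the log2(value + 1) scale, which understates those of low genes. As separate animals are not named, p-values cover the spread between libraries alone. The 16 alternatives included edgeR 4.0.16 and DESeq2 1.42.0 on the recovered reads. Leaving out 1 spermatocyte library assumes that the other varies like the spermatids. The test was tried on simulated data. Strand, transcript lengths and overlaps came from GENCODE vM21.

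The 9 genes and all lists were chosen with earlier results of these data known. The text names the 9 genes, rows overlapping them, the 2 nearest patterns of each, the 3 tested genes of each pathway list with the highest mean over the 5 libraries and every gene of lists of at most 13; 2 genes that this rule selects are not reported here. Marker genes and others named beyond this were chosen after their values were seen. Spag6l, Drc1, Spocd1 and Izumo1 of the lists were not matched.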

Additional observations from a re-analysis of the deposited data

How the results depend on the processing

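Rfx1, Rfx3, Rfx5, Rfx6 and Mybl1 kept their direction and their call in all 16 alternatives, with log2 fold changes of 5.12 to 6.00, 3.79 to 4.58, -2.38 to -1.59, 4.44 to 6.29 and -1.92 to -1.14. With equal library totals Rfx2 was at 0.151 and Rfx4 at 0.033, and with quantile normalization they were at 0.078 and -0.041. Tcfl5 passed the test with TMM factors (-0.44), equal totals (-0.99), quantile normalization (-1.10) and edgeR with TMM factors (-0.44). Leaving out 1 library in turn gave -0.48 to -0.27 for Tcfl5 and -0.70 to -0.49 for Rfx7, whose call ended in 4 of these 5 fits. Of the 9 genes, 3 were higher and 4 lower in spermatids with equal totals and with quantile normalization. The cilium list then had 12 higher under both, with 27 lower (equal totals) and 26 lower (quantile). Without spermatid replicates 1, 2 and 3 in turn, the piRNA list had 4, 3 and 3 higher, beside 41.3%, 38.7% and 38.6% of all rows. With equal totals and with quantile normalization it had 1 higher. The regulators had 6 lower under both, 1 lower with no filter, with no trend and with edgeR on deposited size factors, and 1 to 2 lower with 1 library left out. The MYB list had 3 higher with equal totals. Over all rows, equal totals gave 30.5% higher and 49.4% lower, and quantile normalization 32.9% and 46.9%. With no filter 17263 rows were lower, and with a mean of at least 100 there were 6029 lower and 13986 called, where the number of rows tested changes. The cause of the other differences was not tested. No paired analysis was possible because the labels carry no replicate numbers; those used here follow accession order and pair no libraries. Depth limits Rfx6 most, with 4 and 5 reads in spermatocytes.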

Other observations

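Within the piRNA list, Tdrd5 had 716, 583 and 682 normalized counts in spermatids, against 16021 and 16170 in spermatocytes (log2 fold change -4.61 ± 0.12 (SE), limma adjusted p = 4.81e-07). Tdrd1 (-3.25) and Piwil1 (-4.20) were also lower in spermatids, as log2 fold changes. These 3 were named after their values were seen.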
